A study of Homo sapiens with 10 samples.

Results

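The genes described here are 45 human genes of ribosome biogenesis and RNA polymerase I, taken by name from the 59204 human genes counted by SLAM-seq in K562 cells. K562 is a single human chronic myeloid leukemia line with erythroid features. All 45 were found in the tables. By their known roles, 3 organise the nucleolus, 5 belong to the core of small nucleolar ribonucleoproteins (snoRNPs), 13 act on the small ribosomal subunit, 14 act on the large subunit, 6 belong to the RNA polymerase I machinery and 4 are other nucleolar regulators.

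Cells received 1 of 5 treatments for 2 hours, and every culture, DMSO included, had 4-thiouridine at 100 µM during the last hour. The groups were actinomycin D at 1 µg/mL, which intercalates into DNA and stops RNA polymerases, AZ-5576 at 1 µM, an inhibitor of the kinase CDK9, JQ1 at 1 µM, which displaces BET proteins from chromatin, A-485 at 1 µM, which inhibits the acetyltransferases CBP and p300, and DMSO as the vehicle. Each group had 2 libraries. 4-thiouridine that enters new RNA is read as T-to-C changes, so labelled counts come from reads of RNA made in the label hour, and total counts from all reads. Drosophila RNA added at 5% to the purified RNA sets the scale, so values are per amount of RNA recovered. If the 5% was set by RNA amount, fewer cells or an even loss of RNA per cell would not show in these values. The labels number the 2 libraries of a group and do not say that they came from separate cultures, so p-values measure only the spread between these samples.

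Ribosomes are assembled in the nucleolus. RNA polymerase I copies the ribosomal DNA, snoRNPs modify and help to cut the transcript, and separate sets of factors then build the small and the large subunit. The genes of these factors are themselves transcribed by RNA polymerase II, so the counts below are of their mRNA and not of ribosomal RNA.

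Total human counts ran from 14916671 to 17918971 per library, with spike-in at 10 to 11.7% of each library. HBG1, a fetal globin of K562, had 26080 to 33364 total counts and PRAME, an antigen that K562 makes in quantity, 38828 to 48846, against 1 to 9 for the T cell gene CD3E and 0 to 8 for the liver gene ALB. Summed over the 45 genes, labelled counts per 1000000 spike-in counts were 0.0873% of the DMSO level with actinomycin D, 4.94% under AZ-5576, 51.9% under JQ1 and 107% under A-485. For all labelled RNA these values were 0.303%, 12.5%, 64.7% and 91.4% in the same order. Such sums weigh genes by their counts. With AZ-5576 the median over genes, given below, did not put the members lower than all tested genes. The 45 genes made up 0.399 ± 0.0380% of labelled counts with actinomycin D, 0.543 ± 0.0756% under AZ-5576, 1.11 ± 0.0400% with JQ1, 1.62 ± 0.0183% with A-485 and 1.38 ± 0.0179% with DMSO (SD, n = 2 each). Their total counts, on the same scale, were 88.6%, 92.1%, 86.9% and 102% of DMSO.

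Promoter windows are shown for 6 members, since they hold the 3 genes whose labelled RNA fell most with JQ1 and the 3 whose labelled log2 fold change was nearest 0. Windows run from 250 bases before to 50 bases after the transcription start in RefSeq GRCh38.p14, which matched 40 of the 45 genes, and are written 5′ to 3′ on the gene's strand with any CACGTG in capitals. CACGTG is the canonical E-box, a sequence that MYC with MAX and several other factors are known to bind, and it reads the same on both strands. The windows lie at chr17:2336408-2336707, minus strand (TSR1), chr1:236604467-236604766, minus strand (HEATR1), chr22:30591861-30592160, minus strand (PES1), chr16:15094286-15094585, minus strand (RRN3), chr3:51941855-51942154, minus strand (RRP9) and chr5:171387599-171387898, plus strand (NPM1).
TSR1: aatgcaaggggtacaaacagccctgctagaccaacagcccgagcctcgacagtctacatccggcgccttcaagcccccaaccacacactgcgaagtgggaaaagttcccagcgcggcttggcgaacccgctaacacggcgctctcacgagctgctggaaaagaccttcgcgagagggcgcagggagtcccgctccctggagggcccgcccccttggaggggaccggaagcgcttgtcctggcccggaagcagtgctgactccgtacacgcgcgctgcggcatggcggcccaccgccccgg
HEATR1: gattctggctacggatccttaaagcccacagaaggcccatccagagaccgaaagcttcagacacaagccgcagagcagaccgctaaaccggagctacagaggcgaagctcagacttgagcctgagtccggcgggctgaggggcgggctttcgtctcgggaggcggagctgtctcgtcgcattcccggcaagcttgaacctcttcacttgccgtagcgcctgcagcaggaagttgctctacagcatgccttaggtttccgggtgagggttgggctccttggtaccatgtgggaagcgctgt
PES1: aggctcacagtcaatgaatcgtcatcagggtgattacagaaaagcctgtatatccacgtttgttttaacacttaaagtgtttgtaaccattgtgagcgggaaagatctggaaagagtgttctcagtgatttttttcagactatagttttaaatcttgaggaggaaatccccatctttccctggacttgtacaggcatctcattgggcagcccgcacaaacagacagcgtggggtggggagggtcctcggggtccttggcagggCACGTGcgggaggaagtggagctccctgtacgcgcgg
RRN3: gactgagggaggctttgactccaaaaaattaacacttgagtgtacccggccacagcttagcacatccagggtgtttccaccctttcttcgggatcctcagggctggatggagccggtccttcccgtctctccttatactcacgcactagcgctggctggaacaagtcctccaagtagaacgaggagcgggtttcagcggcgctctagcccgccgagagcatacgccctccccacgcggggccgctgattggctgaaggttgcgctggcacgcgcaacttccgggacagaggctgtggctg
RRP9: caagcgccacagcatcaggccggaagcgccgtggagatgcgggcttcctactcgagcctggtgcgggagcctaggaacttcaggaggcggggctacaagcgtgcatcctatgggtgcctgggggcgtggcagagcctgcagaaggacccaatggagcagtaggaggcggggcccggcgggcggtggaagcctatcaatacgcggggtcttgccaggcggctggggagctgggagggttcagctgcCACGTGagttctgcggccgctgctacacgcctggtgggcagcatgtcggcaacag
NPM1: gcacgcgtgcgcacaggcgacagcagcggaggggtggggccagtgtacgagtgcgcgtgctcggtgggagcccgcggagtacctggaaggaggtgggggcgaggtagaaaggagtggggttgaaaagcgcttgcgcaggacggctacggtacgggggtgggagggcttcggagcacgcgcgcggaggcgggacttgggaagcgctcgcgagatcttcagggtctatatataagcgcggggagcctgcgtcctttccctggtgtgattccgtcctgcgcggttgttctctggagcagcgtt
Of the 3 genes that fell most with JQ1, only PES1 holds the E-box here, and of the 3 nearest 0, only RRP9 does. RRP9 had just 7 labelled counts with JQ1 and 7 with DMSO, summed over the libraries of each group, so its value near 0 says little. Counting a gene if any of its windows held it, 17 of 40 matched members did (42.5%), against 10.9% of 15842 protein-coding RefSeq genes. More than 1 window was listed for 9 of the members (22.5%) and for 25.6% of those genes. Per window of this length, 17 of 49 member windows held it (34.7%), against 8.34% of 22198. It stood close to the start: 16 of 18 copies in members (88.9%) lay within 50 bases of it, against 36.9% of 2821 copies in all windows. This wider set also held windows of genes that are not protein-coding, and repeated windows were kept in it. The E-box was chosen for counting after results were known, so these shares are a description. It was in 12 of 26 members called lower (46.2%) and in 5 of 13 not called (38.5%), and the median labelled log2 fold change was -1.24 with it and -1.44 without it.

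How the E-box sits in its neighbourhood is shown by 26 bases of 5 members. They are those whose E-box lay closest to the start, at offsets of -10 to 7 bases, a choice made after values were seen. They lie at chr2:28894660-28894685, plus strand (WDR43), chr3:51941894-51941919, minus strand (RRP9), chr3:52686028-52686053, plus strand (GNL3), chr12:101280085-101280110, plus strand (UTP20) and chr19:39846358-39846383, minus strand (FBL), in the same build.
WDR43: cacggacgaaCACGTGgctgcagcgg
RRP9: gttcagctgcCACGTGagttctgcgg
GNL3: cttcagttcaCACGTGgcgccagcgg
UTP20: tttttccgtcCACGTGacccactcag
FBL: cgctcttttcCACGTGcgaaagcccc
Of these, WDR43, GNL3 and FBL were called lower in labelled RNA with JQ1, and RRP9 and UTP20 were not. A match of letters is a description and does not show that a factor binds.

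The labelled share of a gene's counts in DMSO shows how much of its mRNA was read as new after an hour. The median over the 45 genes was 3.36% (quartiles 2.39 to 5.21%), close to the 3.71% of the 10409 genes with a mean of at least 50 total counts. TAF1D, a subunit of the SL1 factor that places RNA polymerase I on the ribosomal promoter, had the highest share, 33.1% (95% Wilson interval 32.0 to 34.2%). The RNA polymerase I subunits POLR1B and POLR1C stood at 16.4% and 15.1%, and WDR43, a factor of early small-subunit assembly, at 15.0%. The lowest shares were those of BOP1, a large-subunit factor, at 0.297%, of RRP9, a U3 snoRNP protein, at 0.344%, and of fibrillarin (FBL), the methyltransferase of box C/D snoRNPs, at 0.599%. Intervals cover counting error only, since PCR copies of a molecule were not told apart.

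JQ1 lowered new RNA of a majority of these genes. In labelled RNA, 28 of 43 tested members were lower with JQ1 than with DMSO and none was higher, where 28.6% of all 7996 tested genes were called lower and 1.26% higher (edgeR quasi-likelihood test, Benjamini-Hochberg adjusted p under 0.05). No member was higher at an unadjusted p under 0.05 or by DESeq2, which called 25 lower. BOP1 and GNL3L fell under the filter of 10 labelled counts in 2 libraries. The members' median log2 fold change was -1.25, with a range of -2.80 to -0.15, against -0.85 over all tested genes. By edgeR with TMM scaling, which centres the bulk of genes and moved them by 0.83, 8 members stayed lower and NPM1 was higher, against 5.19% of all genes lower and 5.55% higher, and the members' median was -0.43 against -0.02. The count depended on single libraries: it was 18 without DMSO replicate 1, and 15 of the 28 calls held whichever library was left out.

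**Figure D1:**
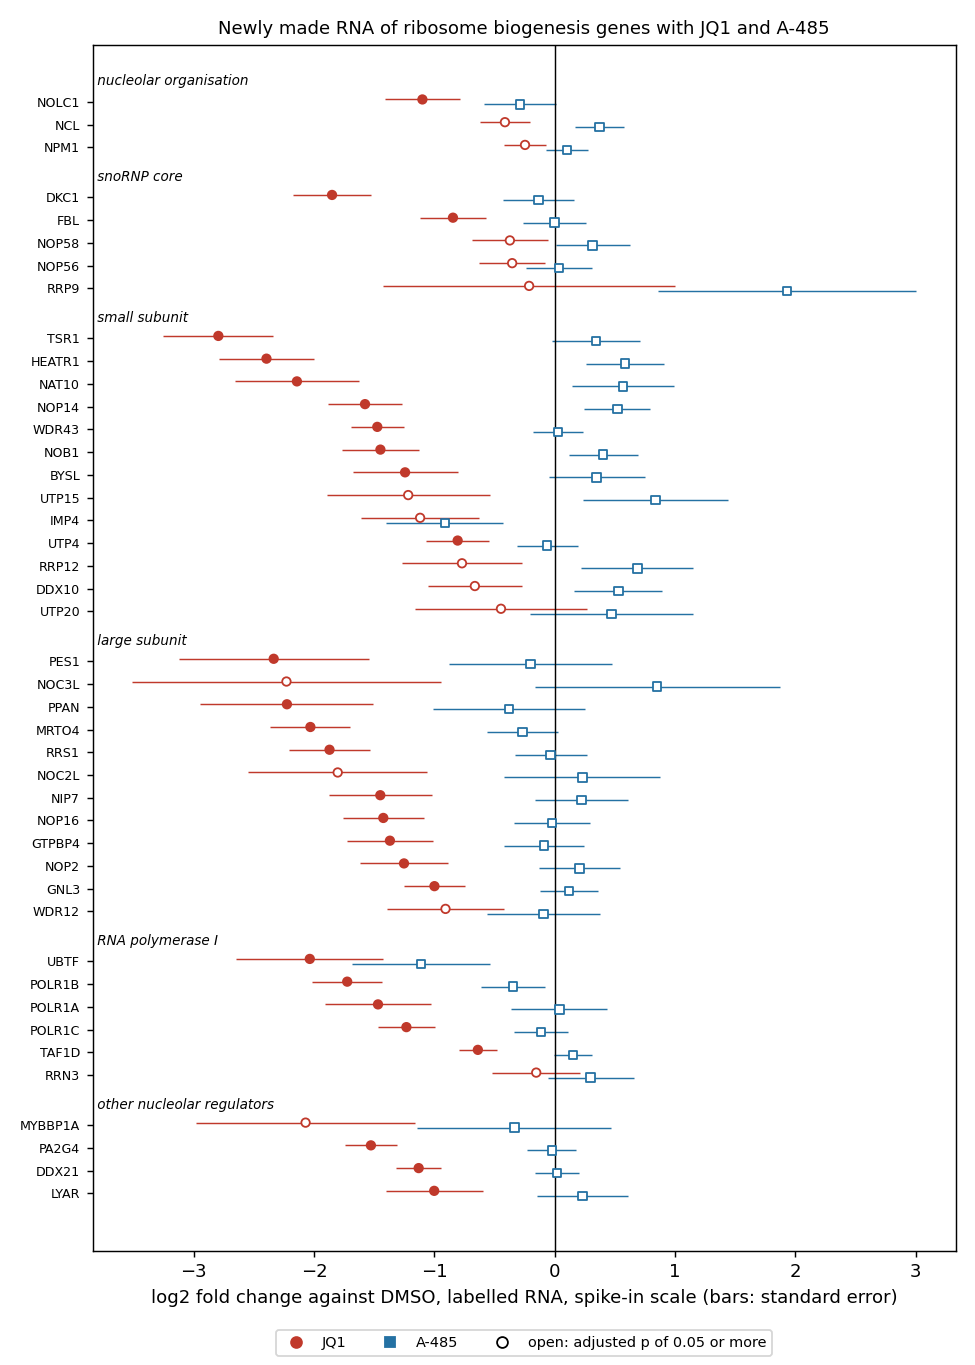
Log2 fold change of labelled RNA against DMSO for the 43 tested members, with JQ1 and with A-485, by role; points are edgeR estimates on the spike-in scale and lines their standard errors. With JQ1 all 43 estimates lie below 0, from -2.80 to -0.15, and with A-485 they lie on both sides of 0, from -1.11 to 1.93.

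The small-subunit factors TSR1 and HEATR1 stood at the far end. TSR1, a GTPase-like factor of late small-subunit maturation (chr17:2322503-2337507, minus strand, hg38), had 3 and 19 labelled counts with JQ1, 86 and 94 with A-485, and 60 and 73 with DMSO. HEATR1, needed for ribosomal DNA transcription and early processing (chr1:236549005-236604504, minus strand, hg38), had 12 and 22 with JQ1, 90 and 158 with A-485, and 80 and 75 with DMSO. In both genes the JQ1 libraries lay below all libraries of the other 2 groups. Against DMSO the log2 fold change with JQ1 was -2.80 (SE 0.46, edgeR adjusted p 7.7e-08) for TSR1 and -2.40 (SE 0.40, edgeR adjusted p 1.2e-07) for HEATR1. In all, 8 of 13 small-subunit factors were lower with JQ1, with a median of -1.24. Next came NAT10, the acetyltransferase of 18S ribosomal RNA, at -2.14 (SE 0.51), then NOP14, an assembly factor, at -1.58 (SE 0.31), and these calls, like those of TSR1 and HEATR1, held without any 1 library. IMP4, UTP15, UTP20, RRP12 and DDX10 were not called, at -1.12, -1.22, -0.45, -0.77 and -0.66.

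Of the large-subunit factors, 9 of 12 were lower with JQ1, with a median of -1.63. MRTO4, a relative of ribosomal stalk protein P0 that acts in assembly, had 35 and 35 labelled counts with JQ1, 102 and 116 with A-485 and 144 and 103 with DMSO, and fell by 2.03 on the log2 scale (SE 0.33). RRS1, which helps to bring in the 5S particle, had 57 and 14 with JQ1, 111 and 120 with A-485 and 137 and 86 with DMSO, and fell by 1.87 (SE 0.34). Both JQ1 libraries of each gene lay below both DMSO libraries. PES1, of the PES1, BOP1 and WDR12 complex, was at -2.34 (SE 0.79) on only 4 and 5 counts with JQ1 and 21 and 19 with DMSO, and its call was lost without any 1 of the 4 libraries. PPAN, a factor of early large-subunit processing, was at -2.23 (SE 0.72), and its call was lost without JQ1 replicate 2, DMSO replicate 1 or DMSO replicate 2. WDR12 was not called, at -0.91 (SE 0.49), nor were NOC2L, at -1.80 (SE 0.74), and NOC3L, at -2.23 (SE 1.28), whose yeast relatives act in transport of the early large subunit.

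Of the RNA polymerase I machinery, 5 of 6 members were lower with JQ1. POLR1B, the second largest subunit (chr2:112541915-112577150, plus strand, hg38), had 69 and 43 labelled counts with JQ1, 87 and 179 with A-485, and 177 and 141 with DMSO. POLR1C, which RNA polymerase III also contains (chr6:43509702-43562419, plus strand, hg38), had 113 and 130 with JQ1, 211 and 272 with A-485, and 238 and 253 with DMSO. These are falls of 1.73 (SE 0.29) and 1.23 (SE 0.24) on the log2 scale, in libraries that did not overlap. The largest subunit POLR1A had 29 and 16 counts with JQ1 against 55 and 52 with DMSO, a fall of 1.47 (SE 0.44) whose call was lost without JQ1 replicate 2, DMSO replicate 1 or DMSO replicate 2. UBTF, the ribosomal DNA architectural factor, was at -2.04 (SE 0.61) on 9 and 11 counts with JQ1 and 29 and 42 with DMSO, a call lost without JQ1 replicate 1 or DMSO replicate 2. TAF1D fell by 0.64 (SE 0.16), with 942 and 836 counts with JQ1 against 1216 and 1159 with DMSO, and on the TMM scale its value turned to 0.19. RRN3, which links the polymerase to the promoter, was not called, with 75 and 46 counts with JQ1 against 52 and 63 with DMSO, a log2 fold change of -0.15 (SE 0.36).

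Of the nucleolar-organisation and snoRNP core genes, 1 of 3 and 2 of 5 were called lower with JQ1, with medians of -0.41 and -0.37, and the difference from other roles was not tested. NPM1 (nucleophosmin) had 570 and 546 labelled counts with JQ1 against 643 and 496 with DMSO, a log2 fold change of -0.25 (SE 0.18) that was not called and was called higher at 0.58 on the TMM scale. NCL (nucleolin) was at -0.41 (SE 0.21), NOP56 at -0.35 (SE 0.28) and NOP58 at -0.37 (SE 0.32), none of them called. NOLC1, a chaperone of snoRNPs, fell by 1.10 (SE 0.31), a call lost without DMSO replicate 1. DKC1, the pseudouridine synthase of box H/ACA snoRNPs, had 53 and 24 counts with JQ1 against 119 and 119 with DMSO, a fall of 1.85 (SE 0.33). FBL was at -0.85 (SE 0.27), a call lost without JQ1 replicate 2, DMSO replicate 1 or DMSO replicate 2. The growth regulator PA2G4 fell by 1.53 (SE 0.22) and the RNA helicase DDX21 by 1.13 (SE 0.18), both kept without any 1 library. NPM1 has 44 named pseudogenes and PA2G4 has 5, so the authors' counting may split their reads.

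**Figure D2:**
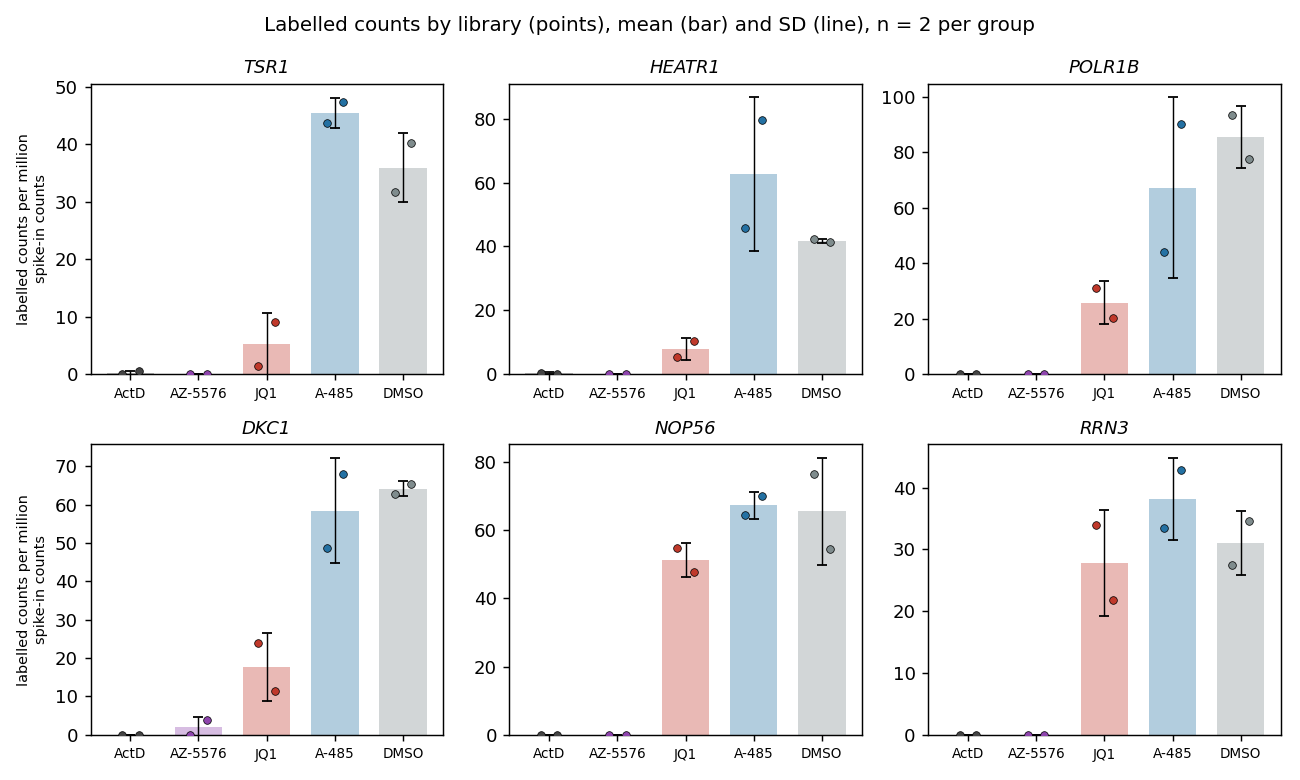
Labelled counts per 1000000 spike-in counts in every library for 6 members; points are libraries, bars group means and lines the SD (n = 2 per group), with the lower end cut at 0, and ActD stands for actinomycin D. JQ1 libraries of TSR1 and HEATR1 lie below those of A-485 and DMSO, RRN3 overlaps between these groups, and values with actinomycin D and AZ-5576 are at or near 0.

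Among the other 101 genes of the pathway, a list of processing factors and polymerase subunits, 97 could be tested. Of these, 44 were lower with JQ1 (45.4%, against 28.6% of all tested genes), with a median of -1.06. The largest falls were in NOL6, NHP2 and NLE1. NLE1, a large-subunit factor, had 5 and 3 labelled counts with JQ1, 31 and 38 with A-485 and 20 and 38 with DMSO, a fall of 3.05 (SE 0.69). NHP2, of the box H/ACA core, had 3 and 2 with JQ1, 18 and 23 with A-485 and 22 and 22 with DMSO, a fall of 3.29 (SE 0.84). Both calls held without any 1 library. The value of NOL6, -3.68 (SE 1.27), rests on 1 and 1 counts with JQ1 and was lost without JQ1 replicate 1, JQ1 replicate 2 or DMSO replicate 1.

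With A-485, new RNA of these genes was not detectably changed. None of the 43 members was called lower or higher by edgeR, none had an unadjusted p under 0.05, and DESeq2 called 0, where edgeR called 4.86% of all tested genes lower and 0.163% higher. The median log2 fold change of the members was 0.10, from -1.11 to 1.93, against -0.09 over all genes. The A-485 libraries lay below both DMSO libraries in 3 members and above them in 12, against 28.7% of all genes below and 18.4% above. POLR1B was at -0.35 (SE 0.27), POLR1C at -0.12 (SE 0.23), TAF1D at 0.15 (SE 0.15) and UBTF at -1.11 (SE 0.57). With an SE of about this size a change of modest fold in 1 gene could have been missed, so no call does not show equality. MYC, a transcription factor known to act on many of these genes and no member of the list, had 40 and 6 labelled counts with JQ1, 7 and 19 with A-485 and 109 and 108 with DMSO. That is a log2 fold change of -2.46 (SE 0.41) with JQ1 and -3.14 (SE 0.45) with A-485.

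Set directly against A-485, JQ1 gave lower labelled RNA in 33 of 43 members and higher in none by edgeR, at an unadjusted p under 0.05 or by DESeq2, where 24.8% of all genes were called lower and 3.14% higher by edgeR. The members' median was -1.46, against -0.72 over all genes. On the TMM scale, a shift of 0.70, 10 members were lower, against 5.43% of all genes lower and 8.42% higher, and the members' median was -0.75 against -0.02. Without A-485 replicate 2 the count was 19, and 18 of the 33 held without any 1 library. Among called members with a mean of at least 20 labelled counts in the higher group, the largest differences were in TSR1 at -3.14 (SE 0.45), HEATR1 at -2.98 (SE 0.39), NAT10 at -2.71 (SE 0.50) and NOP14 at -2.10 (SE 0.30), all kept without any 1 library. NOC3L was at -3.08 (SE 1.23) on 2 and 1 counts with JQ1 against 16 and 9 with A-485, a call lost without any 1 of these 4 libraries. IMP4, NPM1 and NOP56 were nearest 0 with no call, at -0.20 (SE 0.51), -0.35 (SE 0.17) and -0.39 (SE 0.27). POLR1B was at -1.38 (SE 0.29), a call lost without A-485 replicate 2. Of the other pathway genes, 47 of 97 were lower.

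Actinomycin D left next to no new RNA of these genes, and AZ-5576 lowered it in all tested members to differing degrees. With actinomycin D all 43 tested members were lower, where 99.2% of all tested genes were, and 38 of them had 0 labelled counts in both libraries. All 45 members together had 6 labelled counts in each of the 2 libraries. Taking 3 counts over the group as the limit for a count of 0, the 38 genes were at least 2.63-fold to at least 431-fold lower, the highest bound being that of DDX21. On the TMM scale, a shift of 0.97 at the median, 17 members were called lower, against 7.85% of all genes. The median over all genes stayed at -6.64 there, so TMM did not centre the bulk of genes. The calls of RRP9 and NOC3L, on few counts, were lost without DMSO replicate 1, and that of RRP9 also without either actinomycin D library. The log2 estimates of genes at 0 depend on the fit and are not given.

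With AZ-5576 all 43 were likewise lower, where 94.7% of all genes were, and 16 of them had 0 counts in both libraries, with bounds from at least 2.44-fold to at least 129-fold lower, the last in GNL3. The labelled level kept was 1.86% of DMSO at the median. The members' median log2 fold change was -5.47, against -5.94 over all tested genes, and 18 of 43 members lay below the latter. Both medians include genes at 0 counts, whose estimates depend on the fit. The spread among members was wide. DDX10, a helicase of the small subunit, kept 28.6%, with 11 and 20 counts with AZ-5576 against 49 and 53 with DMSO. POLR1A kept 18.4%, with 7 and 14 counts under AZ-5576 against 55 and 52 with DMSO. DDX21 kept 13.4%, with 57 and 106 under AZ-5576 against 575 and 571 with DMSO. All 3 fell on the spike-in scale, by 1.78 (SE 0.44), 2.41 (SE 0.49) and 2.89 (SE 0.21) on the log2 scale. On the TMM scale, which shifted genes by 3.25 at the median, their values turned to 1.71, 1.08 and 0.62. MRTO4, NOP56 and POLR1B, with 247, 244 and 318 labelled counts in DMSO, had none with AZ-5576. The kept level had a Spearman correlation of 0.24 with gene length over 43 members, a description with the same libraries behind every point. On the TMM scale 23 members were lower and 2 higher (DDX10 and DDX21), against 27.6% of all genes lower and 5.89% higher. The members' median there was -2.15 against -3.11 over all genes, so TMM did not centre the bulk of genes here. The calls of RRP9 and NOC3L were again lost without DMSO replicate 1, and that of RRP9 without either AZ-5576 library.

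In total RNA the same drugs moved fewer members. With actinomycin D 18 of 45 members were lower and 0 higher (edgeR, background 19.7% lower and 0.336% higher), with a median of -0.26 against -0.27 over all genes. With AZ-5576 17 were lower and 0 higher (background 12.9% and 0.782%), with a median of -0.21 against -0.15. With JQ1 16 were lower and 0 higher (background 7.35% and 0.837%), with a median of -0.27 against -0.19. With A-485 edgeR called 0 of 45 in either direction (background 1.2% lower and 0.0343% higher), 0 had an unadjusted p under 0.05, and DESeq2 called 0. Its median was 0.06 against -0.04, and its libraries lay below DMSO in 3 members and above in 16, where 23.4% and 12.8% of all genes did so.

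For actinomycin D, AZ-5576 and JQ1 too, 0 members were higher at an unadjusted p under 0.05 or by DESeq2. These counts leaned on single libraries and on the scale. Without DMSO replicate 2 the lower members numbered 8 with actinomycin D, 7 with AZ-5576 and 6 with JQ1, without actinomycin D replicate 1 they numbered 11 and without AZ-5576 replicate 1 they numbered 8. With TMM, which moved genes by 0.25, 0.15 and 0.20 at the median, 7, 10 and 5 members were lower, against 7.91%, 8.3% and 1.98% of all genes. On that scale FBL and UTP4 were higher with actinomycin D, where 5.43% of all genes were, and FBL was higher with AZ-5576, where 3.75% were. POLR1B, POLR1C, PPAN, RRS1 and BYSL were lower under all 3 drugs and kept each call without any 1 library. BYSL, known as bystin, is a small-subunit factor.

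**Figure D3:**
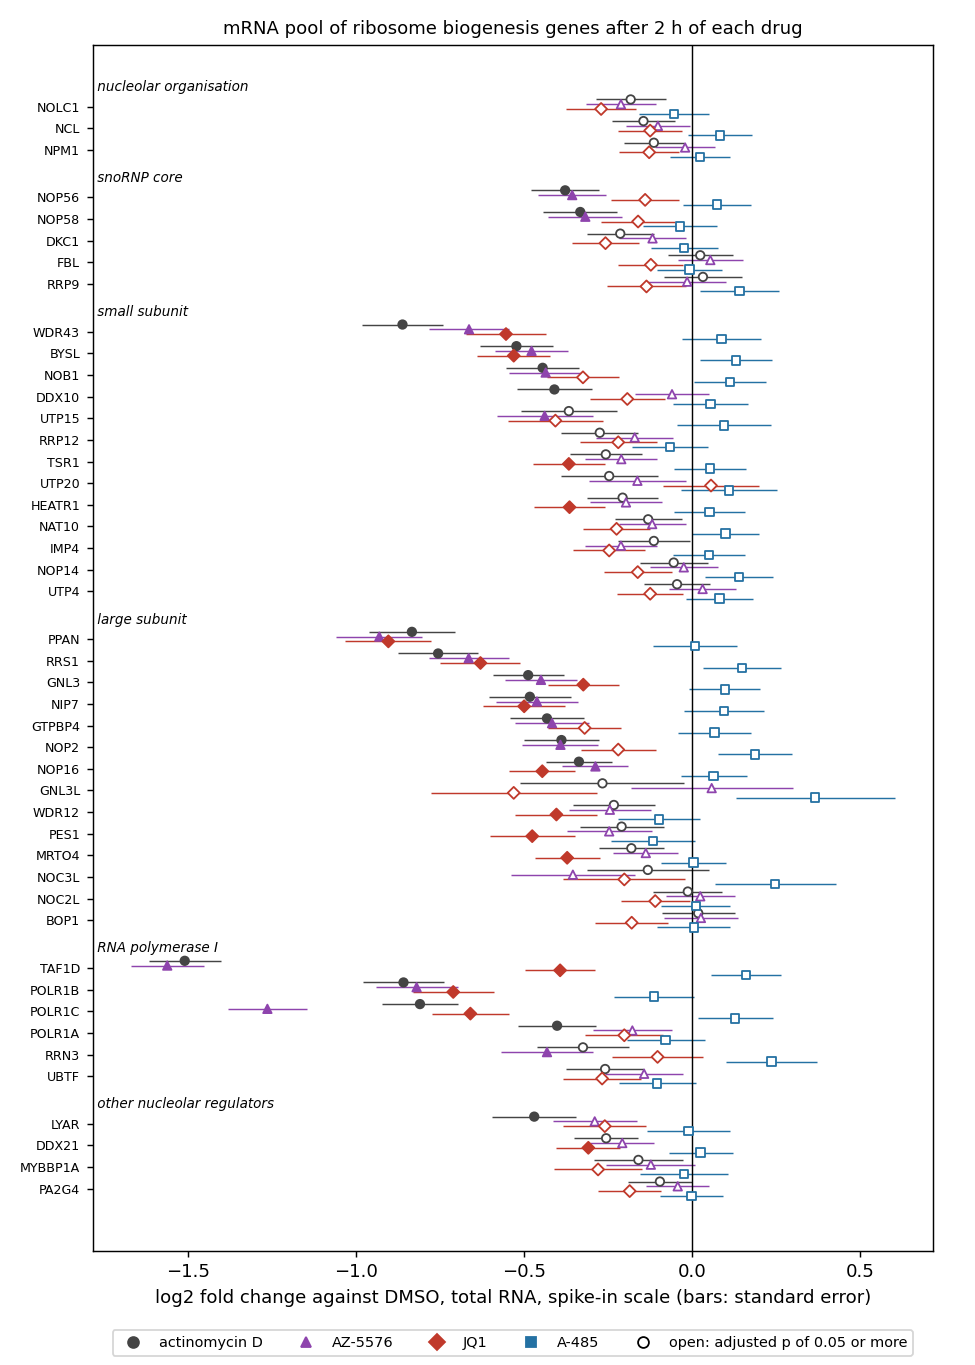
Log2 fold change of total RNA against DMSO for the 45 members with each of the 4 drugs, by role; points are edgeR estimates on the spike-in scale and lines their standard errors. TAF1D stands lowest with actinomycin D (-1.51) and AZ-5576 (-1.56), and with A-485 the members lie around a median of 0.06.

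TAF1D had the largest fall of the members in total RNA with actinomycin D and AZ-5576 (chr11:93729948-93784391, minus strand, hg38). Its total counts per 1000000 spike-in counts were 638 and 722 with actinomycin D, 605 and 706 under AZ-5576, 1449 and 1501 with JQ1, 2145 and 2184 with A-485, and 1851 and 2021 with DMSO. The actinomycin D and AZ-5576 libraries lay far below the rest, at 35.1% and 33.9% of DMSO, with log2 fold changes of -1.51 (SE 0.11, edgeR adjusted p 6.9e-14) and -1.56 (SE 0.11, edgeR adjusted p 4.3e-14). With JQ1 TAF1D was at -0.39 (SE 0.10), a call lost without DMSO replicate 2. TAF1D is also host to 8 snoRNA genes, and the antisense gene CEP295 at its end had at most 117 total counts in any library.

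POLR1C was the 1 member that differed between actinomycin D and AZ-5576. Its level was 446 and 554 with actinomycin D, 357 and 373 under AZ-5576, 568 and 543 with JQ1, 962 and 956 with A-485, and 836 and 918 with DMSO. All libraries of the first 3 drugs lay below DMSO, with log2 fold changes of -0.81 (SE 0.11), -1.26 (SE 0.12) and -0.66 (SE 0.11). Actinomycin D against AZ-5576 gave 0.45 (SE 0.12, edgeR adjusted p 0.023), where 0.371% of all genes were higher and 2% lower. The call was lost without actinomycin D replicate 2, AZ-5576 replicate 1 or AZ-5576 replicate 2. XPO5, antisense to the end of POLR1C, was at -0.05 (SE 0.11) in that comparison.

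POLR1B stood at 281 and 294 with actinomycin D, 273 and 318 under AZ-5576, 327 and 311 with JQ1, 477 and 487 with A-485, and 519 and 524 with DMSO. Its log2 fold changes were -0.86 (SE 0.12), -0.82 (SE 0.12) and -0.71 (SE 0.12) with the first 3 drugs. Of the 6 RNA polymerase I members, 4 were lower in total RNA with actinomycin D and 4 with AZ-5576, with medians of -0.60 and -0.62. Of 10 other RNA polymerase I genes, 3 were lower with actinomycin D and 2 with AZ-5576, with medians of -0.28 and -0.34. Over all tested genes, 19.7% and 12.9% were lower with these drugs. The nucleolar proteins NCL, NPM1 and NOLC1 were not called with any drug. NPM1 had 29130 and 31150 with actinomycin D, 32090 and 32190 under AZ-5576, 30540 and 29150 with JQ1, 33040 and 33300 with A-485, and 32360 and 32820 with DMSO.

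**Figure D4:**
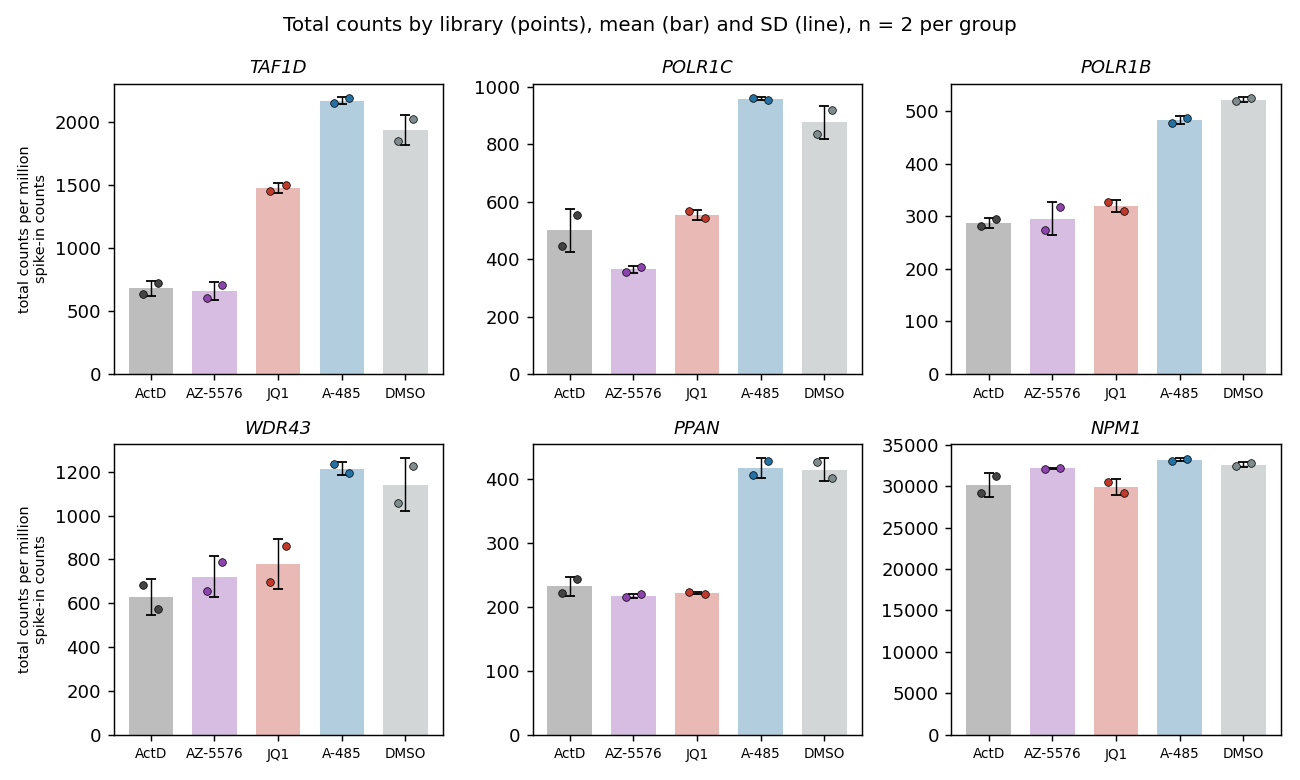
Total counts per 1000000 spike-in counts in every library for 6 members; points are libraries, bars group means and lines the SD (n = 2 per group), and ActD stands for actinomycin D. TAF1D, POLR1C, POLR1B, WDR43 and PPAN lie below DMSO with actinomycin D, AZ-5576 and JQ1, while NPM1 differs by little between groups.

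The large-subunit factor PPAN had similar mRNA levels under these 3 drugs. PPAN (chr19:10106289-10111634, plus strand, hg38) stood at 222 and 244 with actinomycin D, 216 and 220 under AZ-5576, 223 and 221 with JQ1, 407 and 429 with A-485, and 428 and 403 with DMSO. The changes were -0.83 (SE 0.13), -0.93 (SE 0.13) and -0.90 (SE 0.13), and no pair of these 3 drugs other than actinomycin D against AZ-5576 was tested. WDR43 (chr2:28894643-28948222, plus strand, hg38) fell by 0.86 (SE 0.12), 0.66 (SE 0.12) and 0.55 (SE 0.12) with actinomycin D, AZ-5576 and JQ1, the JQ1 call being lost without DMSO replicate 2. RRS1 fell by 0.76 (SE 0.12), 0.66 (SE 0.12) and 0.63 (SE 0.12). In total RNA, 10 members were lower with all 3 drugs, which share the DMSO libraries, and 6 were lower with JQ1 but not called with the other 2: DDX21, HEATR1, MRTO4, PES1, TSR1 and WDR12. Of these 6, HEATR1 was at -0.36 (SE 0.11) and TSR1 at -0.37 (SE 0.11) with JQ1, and each of the 6 calls was lost without at least 1 library. The matching shares over all tested genes were not counted, so the 10 and the 6 are only a description.

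**Figure D5:**
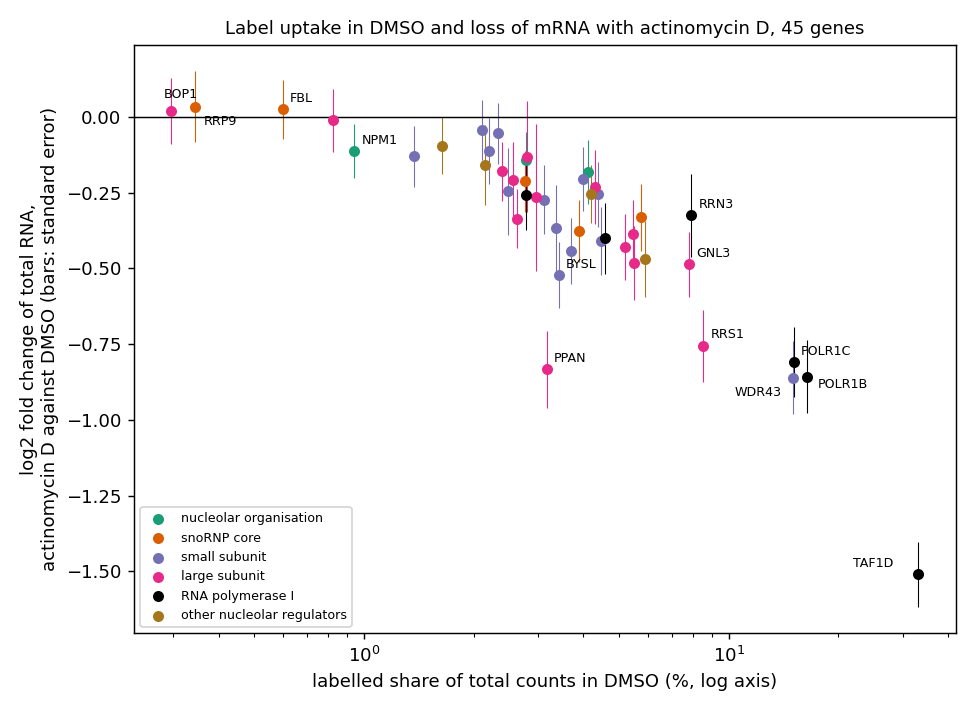
Labelled share of total counts in DMSO (percent, log axis) against the log2 fold change of total RNA with actinomycin D against DMSO for the 45 members; lines are standard errors and colours give the role. TAF1D lies at the lower right (33.1% and -1.51), followed by POLR1B, POLR1C and WDR43, and BOP1, RRP9 and FBL lie at the upper left near 0.

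A higher labelled share in DMSO went with a lower total log2 fold change under actinomycin D and AZ-5576. Over the 45 members the Spearman correlation of the share with the total log2 fold change was -0.86 with actinomycin D, -0.78 under AZ-5576, -0.49 under JQ1 and 0.15 under A-485. Without the 4 members of highest share it was -0.82, -0.72, -0.37 and 0.12, and over 10409 genes it was -0.64, -0.57, -0.26 and -0.04. These are descriptions across genes, which are not independent replicates, and the share and the fold change both use the DMSO libraries. PPAN lay off the trend, with a share near the median and a fall of 0.83 with actinomycin D, and RRN3 lay off it the other way, with a share of 7.91% and a change of -0.32 (SE 0.14) that was not called.

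Other genes of the pathway were lower in total RNA in 39 of 100 with actinomycin D, 23 under AZ-5576 and 21 under JQ1 by edgeR. Over all tested genes these shares were 19.7%, 12.9% and 7.35%. UTP23, a small-subunit factor, had 187 and 194 total counts with actinomycin D, 139 and 138 under AZ-5576, 290 and 264 with JQ1, 417 and 374 with A-485, and 370 and 372 with DMSO. It was called lower with actinomycin D and fell by 1.48 on the log2 scale (SE 0.17) with AZ-5576. MPHOSPH10, of the U3 particle, fell by 1.10 (SE 0.15) with actinomycin D and by 1.06 (SE 0.15) with AZ-5576. With JQ1 the large-subunit factor MAK16 fell by 0.73 (SE 0.13), with 684 and 602 total counts with JQ1 against 892 and 936 with DMSO, and kept its call without any 1 library.

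Some further features of the member genes are given as a description. Of the members, 10 hold snoRNA genes, 36 in all, and their median labelled log2 fold change with JQ1 was -1.12, against -1.37 over the 33 others. The share of such host genes among all genes is not given here. At the last 500 bases, where this kind of library reads, 10 members overlap an antisense gene and 3 a gene on the same strand, and 11 have named pseudogenes, so reads of these pairs may not be told apart. The part of such overlap in the values was not tested, apart from those given for XPO5 and CEP295.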

How the data were processed

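SLAM-seq libraries of K562 cells came as 3 deposited tables of raw counts per gene, one of all human reads, one of human reads with T-to-C changes and one of Drosophila spike-in reads. The counts are as the authors deposited them, not normalised. Iodoacetamide-treated and cleaned RNA received 5% Drosophila S2 material before QuantSeq 3′ FWD libraries were made, per the labels' protocols. Per the submitters' processing notes, the tools included bedtools, Trim Galore 0.6.5 and bcl2fastq 2.17.1.14, with the builds hg38 and dm6. For the aligner, conversion caller and counter, names were not given in the sources used here.

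Total human counts were 14916671 to 17918971 per library, and 7996 genes in labelled RNA and 14572 in total RNA passed 10 counts in 2 libraries. edgeR 4.0.16 (quasi-likelihood, robust, two-sided, R 4.3.3) was fitted to all 10 libraries taking spike-in totals as library sizes, leaving 5 residual degrees of freedom, with Benjamini-Hochberg adjusted p under 0.05. Biological coefficients of variation were 24.8% (labelled) and 10.9% (total). Low labelled counts widen the error of single genes. No 2 libraries held identical columns. The fit was also run on simulated counts, for A-485 against DMSO only and with the same spread for every gene. That simulation held no group near 0, such as labelled RNA with actinomycin D or AZ-5576, so it does not bear on those comparisons. Alternatives were TMM, DESeq2 1.42.0, other filters, only the groups compared, a replicate block and leaving out each library. Positions and gene symbols came from GENCODE 29, which held 55838 of 59204 identifiers. In each comparison the 12 called members with the largest change and a mean of at least 20 counts in the higher group, the 3 members nearest 0, the RNA polymerase I members and the 3 largest other pathway genes were eligible to be named. Other names were chosen after values were seen. The members and lists were chosen with earlier results of these data known.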

Additional observations from a re-analysis of the deposited data

How the results depend on the processing

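Labelled falls with actinomycin D and AZ-5576 kept their direction under every alternative run except TMM scaling, and A-485 gave no call under any alternative run. With TMM, the members called lower numbered 17 (actinomycin D), 23 (AZ-5576), 8 (JQ1) and 10 (JQ1 against A-485) in labelled RNA, and 7, 10 and 5 with actinomycin D, AZ-5576 and JQ1 in total RNA. Members called higher with TMM numbered 2 (AZ-5576) and 1 (JQ1) in labelled RNA, and 2 (actinomycin D) and 1 (AZ-5576) in total RNA. TMM is meant to centre each library on the bulk of its genes. In labelled RNA it did not do so with actinomycin D or AZ-5576, where the median over all genes stayed at -6.64 and -3.11. Counts and turned signs on the TMM scale for these drugs are therefore not relative to a centred bulk. Directions were compared for genes eligible to be named in a comparison and called on at least 1 of the scales. Of these, TMM turned DDX10 (1.71), DDX21 (0.62) and POLR1A (1.08) with AZ-5576, and NPM1 (0.58) and TAF1D (0.19) with JQ1, all in labelled RNA. UTP4, outside that set, also turned, in total RNA with actinomycin D. Genes called on neither scale can turn too and are not listed.

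Leaving out 1 library moved the lower members to between 18 and 24 with JQ1 and between 19 and 28 for JQ1 against A-485 in labelled RNA, and to between 8 and 21 with actinomycin D, between 7 and 17 with AZ-5576 and between 6 and 13 with JQ1 in total RNA. The single member higher with actinomycin D than with AZ-5576 numbered between 0 and 1. With the replicate number as a block, the total count with JQ1 was 25 and 1 member was lower with actinomycin D than with AZ-5576. The differences between replicate 1 and replicate 2 of each group were correlated between groups, over genes. These correlations were -0.05 to 0.15 in labelled RNA and -0.06 to 0.23 in total RNA. They do not settle whether the numbers pair the samples, and the main fit did not pair them. With only the 2 groups compared, 9 members were lower with JQ1 in total RNA. Shares over all genes for the left-out libraries, the block and the 2-group fits are not given here. The counts therefore do not show whether calls of members moved more than those of other genes. For changes other than those of scale or of libraries used, the cause was not tested. Low labelled counts limit what can be seen in single genes.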
